A study of Bubalus bubalis with 12 samples.

Results

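PAX6 was the gene symbol with the most probes on the array. It carried 462 of the 177440 non-control probes, ahead of EEFSEC with 457, while the median symbol had 4. The probes were taken by the gene symbol printed beside them, a rule that uses no measured value, and PAX6 is 1 of 9328 symbols on the array. They are 60 bases long and lie in 22.4 kb of cattle chromosome 15, chr15:62382338-62404744 on the build HGSC Btau_3.1, on which the array was designed. By the array's own annotation 448 of them sit in CpG islands, 10 in a promoter (between 62401750 and 62404744) and 4 in coding sequence (between 62394729 and 62394848). Exons, introns, UTRs and the strand of the gene on that build were not analysed here. In the buffalo RefSeq assembly NDDB_SH_1 the nearest named protein-coding neighbours by order are RCN1 on one side and ELP4 on the other.

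PAX6 encodes a paired-box and homeobox transcription factor that directs development of the eye, of parts of the brain and of the endocrine pancreas. H3K4me2, histone H3 dimethylated at lysine 4, is found at promoters and CpG islands of active or poised genes. H3K27me3, trimethylation at lysine 27, is placed by Polycomb complexes at silenced genes, and developmental regulators of this class often carry both marks in germ cells. Most histones of sperm chromatin are replaced by protamines, so either mark can be read only on the histones that remain.

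The samples were spermatozoa of 6 water buffalo (Bubalus bubalis) bulls, taken from frozen (cryopreserved) semen: HF2, HF3 and HF5 labelled high fertile and SF1, SF4 and SF5 labelled subfertile. Each bull gave 1 array per mark, 12 arrays in all. Chromatin was crosslinked and cut with micrococcal nuclease; DNA precipitated with an antibody to H3K4me2 or to H3K27me3 carried Cy5, and that bull's input DNA carried Cy3, without a dye swap. How fertility was scored, the age of the bulls and the number of ejaculates are not given in the sources used here, so the spread between bulls may hold technical parts. Both kinds of DNA passed through linker-mediated PCR, and buffalo DNA was read on cattle sequence.

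Values below are log2 ratios of ChIP over input, with the median probe of each array at 0, so that 1 stands for a ratio of 2 relative to that probe. Of the 462 probes, between 452 and 462 per array were well above background in the input colour and between 436 and 462 in the ChIP colour, and 0 spots were saturated. Arrays, not reads, were measured, so the number of bulls (3 per group) limits the precision.

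Tiling was dense but patchy. The median step between neighbouring probes was 4 bases, and 82.2% of the 461 steps were 5 bases or less. Together the probes covered 4529 bases, 20.2% of the span, in 7 runs separated by gaps of over 500 bases. The 2 largest runs, chr15:62394494-62397908 and chr15:62398407-62403394, held 168 and 258 probes. Only 62 probes can be picked that do not overlap, so neighbours share most of their bases and are not independent measurements. The probes held a median of 48.3% G and C and 2 CpG dinucleotides, against 51.7% and 3 over all probes on the array.

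Shown here, with each CpG in capitals, are the probes at which the means of the marks stood furthest from the array median. Also shown are probes with the smallest p-values between bull groups, among those at which the groups did not overlap. For the comparison of marks, they were taken among probes at which the marks differed with the same sign in every bull. The probe shown for H3K4me2 above H3K27me3 came after that at 62397845, which had a smaller p. All sequences shown read 5′ to 3′ in the direction of rising coordinates. In 413 of 413 neighbouring pairs that share over 10 bases, the shared bases matched in that order.

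chr15:62399226-62399285, highest mean of both marks: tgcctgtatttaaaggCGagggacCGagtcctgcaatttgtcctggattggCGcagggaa
chr15:62397160-62397219, lowest H3K4me2 mean: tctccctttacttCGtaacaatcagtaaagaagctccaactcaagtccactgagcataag
chr15:62395961-62396020, lowest H3K27me3 mean: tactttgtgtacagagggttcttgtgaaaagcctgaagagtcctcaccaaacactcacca
chr15:62398954-62399013, H3K4me2 lower in high-fertile bulls: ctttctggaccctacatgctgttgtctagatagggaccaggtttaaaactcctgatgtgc
chr15:62388896-62388955, H3K4me2 higher in high-fertile bulls: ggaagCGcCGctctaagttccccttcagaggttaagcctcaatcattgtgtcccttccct
chr15:62401072-62401131, H3K27me3 lower in high-fertile bulls: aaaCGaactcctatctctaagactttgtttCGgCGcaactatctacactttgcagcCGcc
chr15:62396399-62396458, H3K4me2 above H3K27me3: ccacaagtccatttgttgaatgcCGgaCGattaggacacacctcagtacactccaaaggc
chr15:62399056-62399115, H3K4me2 below H3K27me3: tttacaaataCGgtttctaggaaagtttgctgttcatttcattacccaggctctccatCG

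Although 448 probes were annotated as CpG island, 13.4% of them held no CpG at all, against 4.27% of all CpG island probes on the array. Over all PAX6 probes the share was 13.2%, against 6.52% of all probes. The lowest H3K27me3 probe and the probe at 62398954, both shown above, are among those without one.

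Averaged over the locus, PAX6 lay near the array median for both marks in every bull. The H3K4me2 mean over the probes (461 or 462 per array, an outlier spot being left out) was -0.19 in HF2, -0.12 in HF3 and 0.20 in HF5, and 0.03 in SF1, 0.01 in SF4 and 0.39 in SF5. For H3K27me3 it was -0.13 in HF2, -0.14 in HF3 and 0.24 in HF5, and 0.01 in SF1, -0.04 in SF4 and -0.14 in SF5. HF5 was high for both marks, SF5 was the highest array for H3K4me2 but among the lowest, with HF2 and HF3, for H3K27me3, and the bull groups overlapped for both marks.

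**Figure D1:**
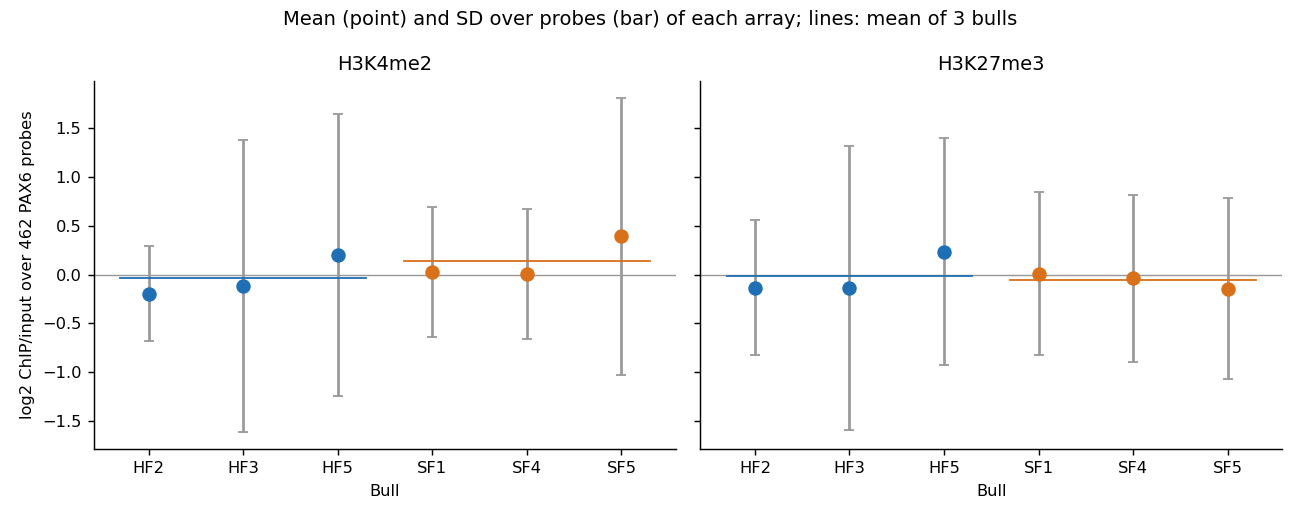
Mean log2 ratio of ChIP over input over the PAX6 probes on each array (points; blue, high-fertile; orange, subfertile), with the SD over probes as bars and the mean of 3 bulls as lines. All 12 means lie between -0.19 and 0.39, while the SD over probes ranges from 0.49 to 1.50.

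Subfertile bulls had the highest group mean for H3K4me2, 0.14 ± 0.22 (SD, n = 3 bulls). Next in order came high-fertile H3K27me3 at -0.01 ± 0.21, high-fertile H3K4me2 at -0.04 ± 0.21 and subfertile H3K27me3 at -0.06 ± 0.08 (SD, n = 3 bulls each). No neighbours in this order differed beyond their spread. The high-fertile minus subfertile difference was -0.18 for H3K4me2, with a 95% confidence interval of -1.10 to 0.74 (limma, adjusted p = 1.00 over 6805 genes). For H3K27me3 it was 0.05, with an interval of -0.76 to 0.85 (limma, adjusted p = 1.00). The H3K27me3 difference turned to -0.08 without HF5, and within the only slide that carried a bull of each group, HF5 minus SF1 was 0.18 for H3K4me2 and 0.23 for H3K27me3. On the remaining slides, which held 1 bull each, bull and slide cannot be told apart.

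No departure from the array median was detected for either mark over the locus as a whole. The mean over 6 bulls was 0.05 for H3K4me2 (interval -0.36 to 0.47, limma adjusted p = 0.972) and -0.03 for H3K27me3 (interval -0.40 to 0.33, adjusted p = 0.991). H3K4me2 minus H3K27me3 was 0.09 (interval -0.39 to 0.57, adjusted p = 1.00), and with the bull as a block the interval was -0.31 to 0.48. The fertility difference did not differ detectably between the marks: its difference was -0.22 (limma, interval -1.19 to 0.74, adjusted p = 1.00). In all 6 comparisons, 0 of 6805 genes (0%) passed limma's adjusted p of 0.05. At an unadjusted p under 0.05 it had 198 genes for the H3K4me2 and 277 for the H3K27me3 fertility comparison, 348 and 389 for the means, 41 for the marks and 45 for the difference between marks.

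Within the locus the values varied far more than its means. Probes within an array had an SD of 0.49 to 1.50 for H3K4me2 and 0.69 to 1.46 for H3K27me3. The share of PAX6 probes beyond 1 or -1 for H3K4me2 was 5.41%, 43.3% and 48.1% in HF2, HF3 and HF5, and 12.8%, 13.0% and 53.7% in SF1, SF4 and SF5. For H3K27me3 it was 16.3%, 43.1%, 44.3%, 20.8%, 21.6% and 21.6% in the same order. HF3 and HF5 therefore had wide swings for both marks, SF5 for H3K4me2, and HF2 the flattest profile. These shares followed those of the whole arrays, where they ran for H3K4me2 from 11.9% in HF2 to 52.0% in SF5.

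**Figure D2:**
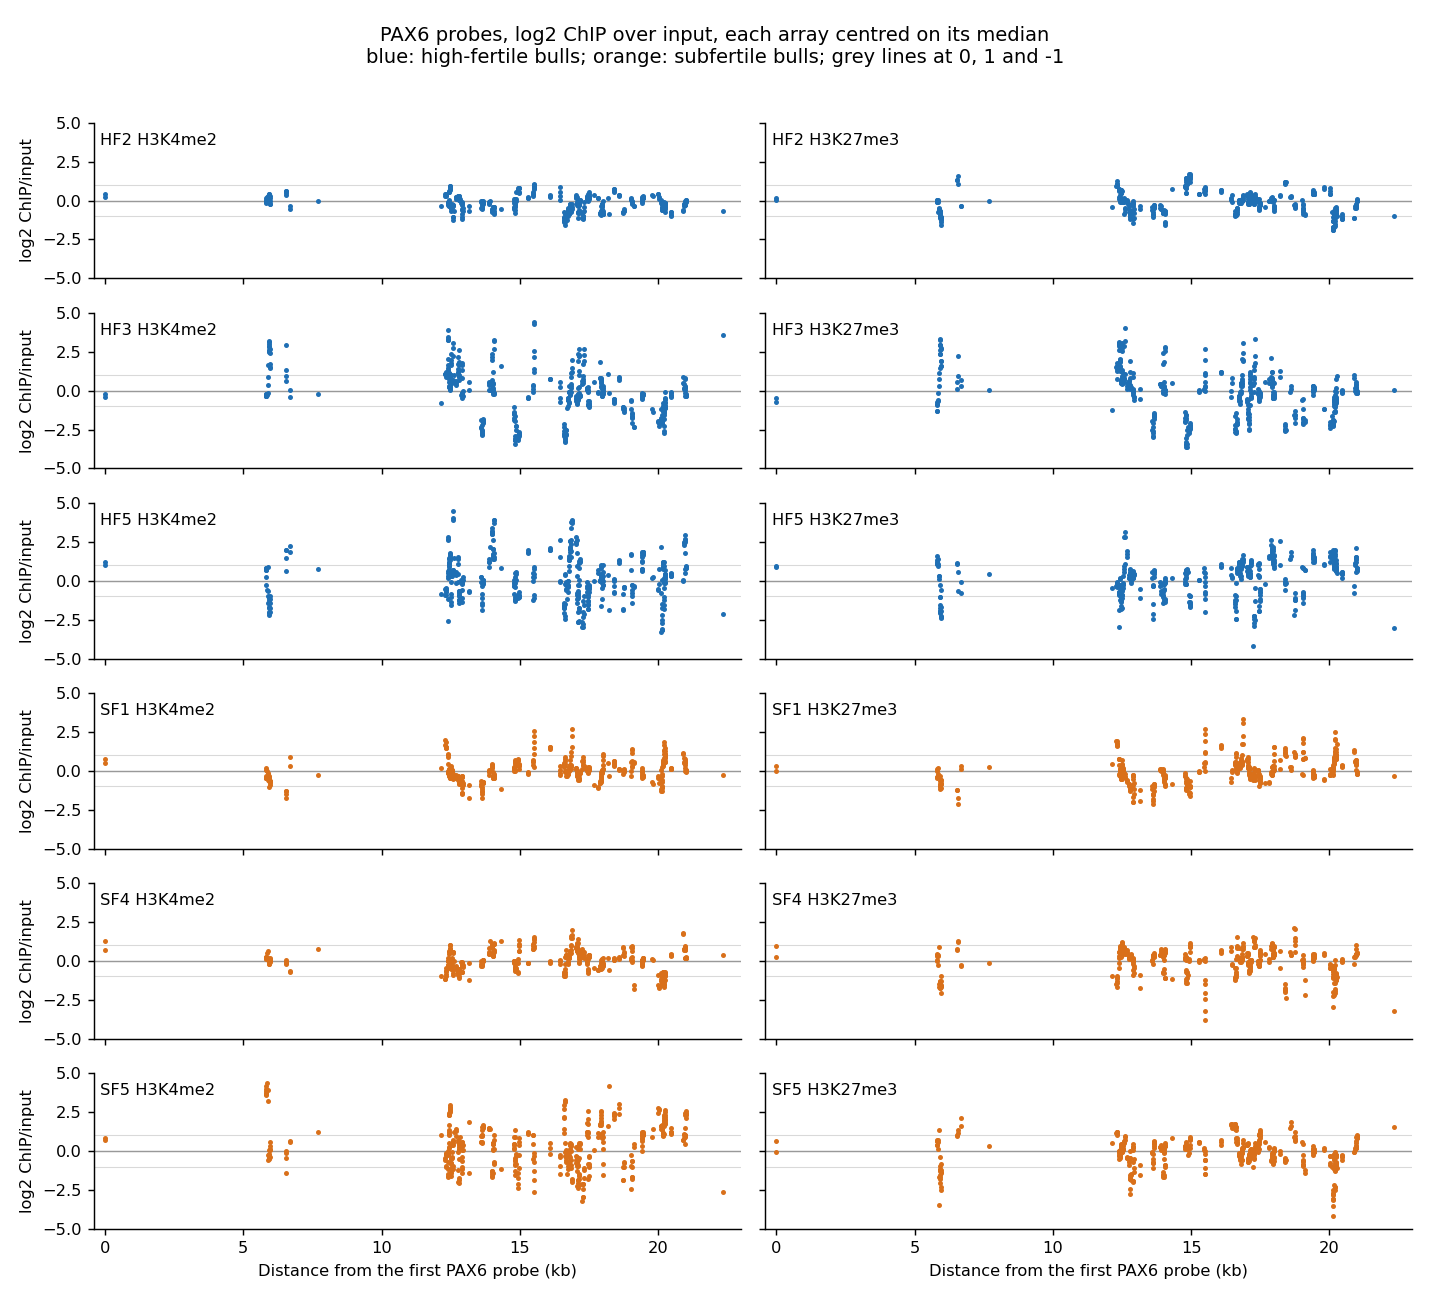
Log2 ratio of ChIP over input at each PAX6 probe against the distance from the first probe, 1 panel per bull and mark (blue, high-fertile; orange, subfertile; grey lines at 0, 1 and -1). Points form narrow columns that rise or fall at different places in different bulls, and HF2 stays closest to 0 for H3K4me2.

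The highest single value for H3K4me2 was 4.46, in HF5 at the probe starting at 62394933, and the lowest -3.43, in HF3 at 62397156. For H3K27me3 the extremes were 4.04, in HF3 at the same probe at 62394933, and -4.19, in HF5 at 62399591. High and low values came in short stretches. Counting unbroken stretches of at least 5 probes beyond 1 or -1, there were 110 over the 12 arrays, with a median width of 89 bases and a range of 72 to 245. The widest, 27 probes from 62397118 to 62397362, was low in HF3 for both marks, with means of -2.52 for H3K4me2 and -2.48 for H3K27me3. HF2 was high there for H3K27me3, at a mean of 1.38 over 19 probes from 62397152, so the bulls went opposite ways over the same bases.

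Repeat spots of the same hybridisation gave like values. There were 6 sequences printed at more than 1 spot, which gave 72 pairs of spots over the 12 arrays. Spots of a pair differed by a median of 0.0829 and at most 0.604, and 67 pairs were within 0.3 of each other. The sequence at 62402535 read -2.56 and -2.70 for H3K4me2 in HF3 and 2.33 and 2.26 in SF5. For H3K27me3 it read 2.50 and 2.07 in SF1 and -2.49 and -2.33 in SF5. The SD within pairs was 0.119. Repeat spots share the ChIP, the PCR and the hybridisation, so they measure only the error between spots.

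The closer PAX6 probes lay, the more alike they were, up to a distance of about 120 bases. Probes 1 to 10 bases apart differed by a median of 0.135 (0.0989 to 0.276 over the 12 arrays). At 31 to 60 bases the median was 0.462, at 61 to 120 bases, where probes share no base, 0.543, at 121 to 250 bases 0.791, and from there to 5000 bases it stayed between 0.727 and 0.822. Beyond about 120 bases, then, the ratio at a PAX6 probe was no closer to that of another probe nearby than to that of one several kilobases away.

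**Figure D3:**
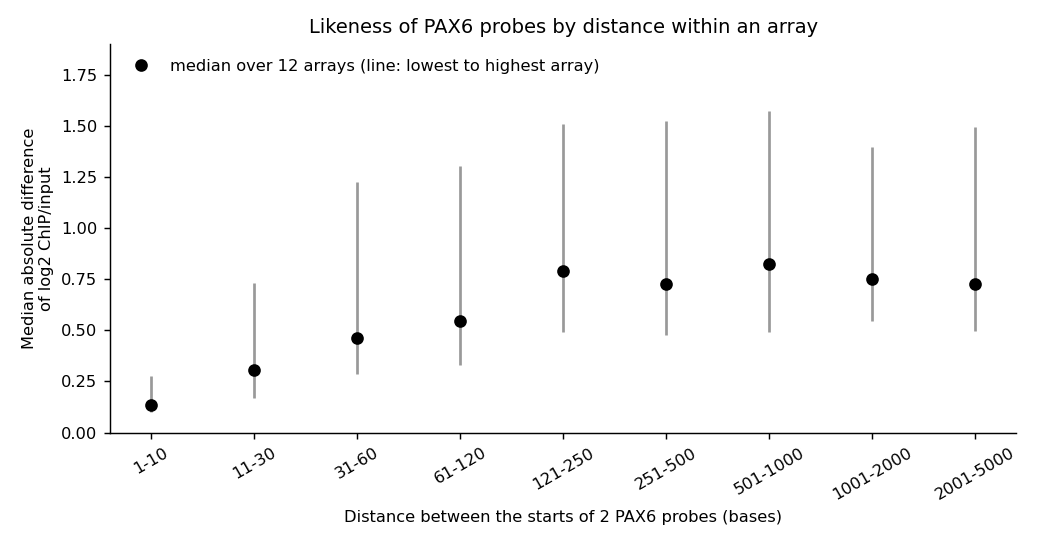
Median absolute difference of the log2 ratio between pairs of PAX6 probes of the same array, by the distance between their starts in bases (points, median over 12 arrays; lines, lowest to highest array). It rises from 0.135 at 1 to 10 bases to 0.791 at 121 to 250 bases and is level after that.

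Values beyond 1 or -1 were seldom shared by several bulls. Of the 462 probes, 224 were above 1 for H3K4me2 in 1 bull, 84 in 2, 12 in 3, 5 in 4 and 0 in 5 or 6. For H3K27me3 the counts above 1 were 207, 51, 12, 5 and 0. No probe was below -1 in all 6 bulls for either mark, and only 2 probes, for H3K27me3, were so in 5. At 144 probes for H3K4me2 and 136 for H3K27me3, at least 1 bull was above 1 and another below -1, while 61 and 101 probes stayed within 1 of the median in all bulls. The fixed cutoff limits these counts: HF2 had only 2 probes above 1 for H3K4me2, SF4 31 and SF1 35. At most 2 probes could thus be above 1 for H3K4me2 in all 6 bulls, and sharing of smaller values is not counted.

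How alike the profiles of the marks were differed from bull to bull. Across the PAX6 probes the H3K4me2 and H3K27me3 ratios of a bull correlated most closely in HF3 (Pearson r = 0.90) and SF1 (0.79), less in HF2 (0.48), HF5 (0.33) and SF4 (0.32), and least in SF5 (0.07). For pairs of bulls compared within a mark, the median r was 0.0639, but the highest, 0.46 between HF2 and SF5 for H3K27me3, exceeded the r between the marks in HF5, SF4 and SF5. These are descriptions over overlapping probes, and both arrays of a bull share its input DNA, whose own r between the arrays was 0.988 to 0.996. In the ChIP signal alone the marks of a bull had a mean r of 0.798 and different bulls within a mark a median r of 0.805. In HF3, 94 probes were below -1 for both marks, 83.9% of those below -1 for H3K4me2 and 81.0% of those for H3K27me3. In SF5, by contrast, 16 probes were below -1 for both marks, 20.0% of those for H3K4me2 and 26.2% of those for H3K27me3. Above 1 for both marks were 65 probes in HF3 (73.9% and 78.3%) and 14 in SF5 (8.33% and 35.9%).

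Input and ChIP signals entered the ratio to different extents in different bulls. In HF3 the ratio over PAX6 probes fell as the input rose, with r of -0.73 for H3K4me2 and -0.68 for H3K27me3, and it was nearly unrelated to the ChIP signal (0.05 and 0.12). In HF5 and SF5 it followed the ChIP signal, with r of 0.83 and 0.84 for H3K4me2 and 0.72 in both for H3K27me3. SF1 was nearer to HF3, at -0.46 and -0.40 against input. The ratio also rose with the G and C share of the probe, most in HF5 for H3K4me2 (r = 0.38). What part these have in the values below was not tested, except where the colours are given apart.

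Read in 1 kb windows, 11 of which held at least 3 PAX6 probes, the highest H3K4me2 means over 6 bulls were 0.68 ± 0.71 (SD, n = 6 bulls) in the window starting at 62403000, which holds 2 of the promoter probes, and 0.47 ± 0.93 in that at 62396000. The second of these rested on HF5, without which it was 0.14. In the window at 62403000 HF2 was at -0.20, HF3 at 0.13, HF5 at 1.55, SF1 at 0.43, SF4 at 0.67 and SF5 at 1.48, so HF5 and SF5 stood highest and HF2 lowest. It was the only window of 11 with an unadjusted p under 0.05 against the array median (limma adjusted p = 0.918), where 4.48% of all windows had one, and its mean was 0.26 without HF5 and SF5 and 0.07 in a window of 2000 bases. Both colours were bright there: the input lay 0.77 to 1.42 above the array median and the H3K4me2 ChIP signal 0.98 to 2.99. The lowest H3K4me2 windows were those at 62398000 (-0.33 ± 0.91, but -0.02 without HF3) and 62395000 (-0.27 ± 0.35, but -0.17 without SF1).

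For H3K27me3 the highest windows started at 62394000 (0.36 ± 0.63), which holds the coding probes, and at 62403000 (0.34 ± 0.42). HF3 was at 1.53 in the first of these, and its mean without HF3 was 0.12. The lowest were those at 62395000 (-0.44 ± 0.50) and 62402000 (-0.33 ± 0.97), the second of which ranged from -0.63 without HF5 to -0.17 without SF5. H3K27me3 had 0 of 11 windows with an unadjusted p under 0.05, where limma had 683 of all 13287 windows, and at an adjusted p of 0.05 it called 0 windows (0%) for either mark, PAX6 windows included. Single bulls ranged widely in the window at 62402000, where H3K4me2 ran from -1.32 in HF3 to 1.67 in SF5 and H3K27me3 from -1.13 in SF5 to 1.16 in HF5. SF5 was thus highest for one mark and lowest for the other there.

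The last promoter probe, at 62404685, lies alone and swung widely between bulls. For H3K4me2 it read -0.66 in HF2, 3.57 in HF3 and -2.14 in HF5, and -0.28 in SF1, 0.40 in SF4 and -2.66 in SF5. For H3K27me3 it read -0.97, 0.01, -3.02, -0.35, -3.22 and 1.56 in the same order. HF3 was high for H3K4me2 alone, SF4 and SF5 had opposite signs for the marks, and no neighbour within 500 bases repeats the measurement.

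**Figure D4:**
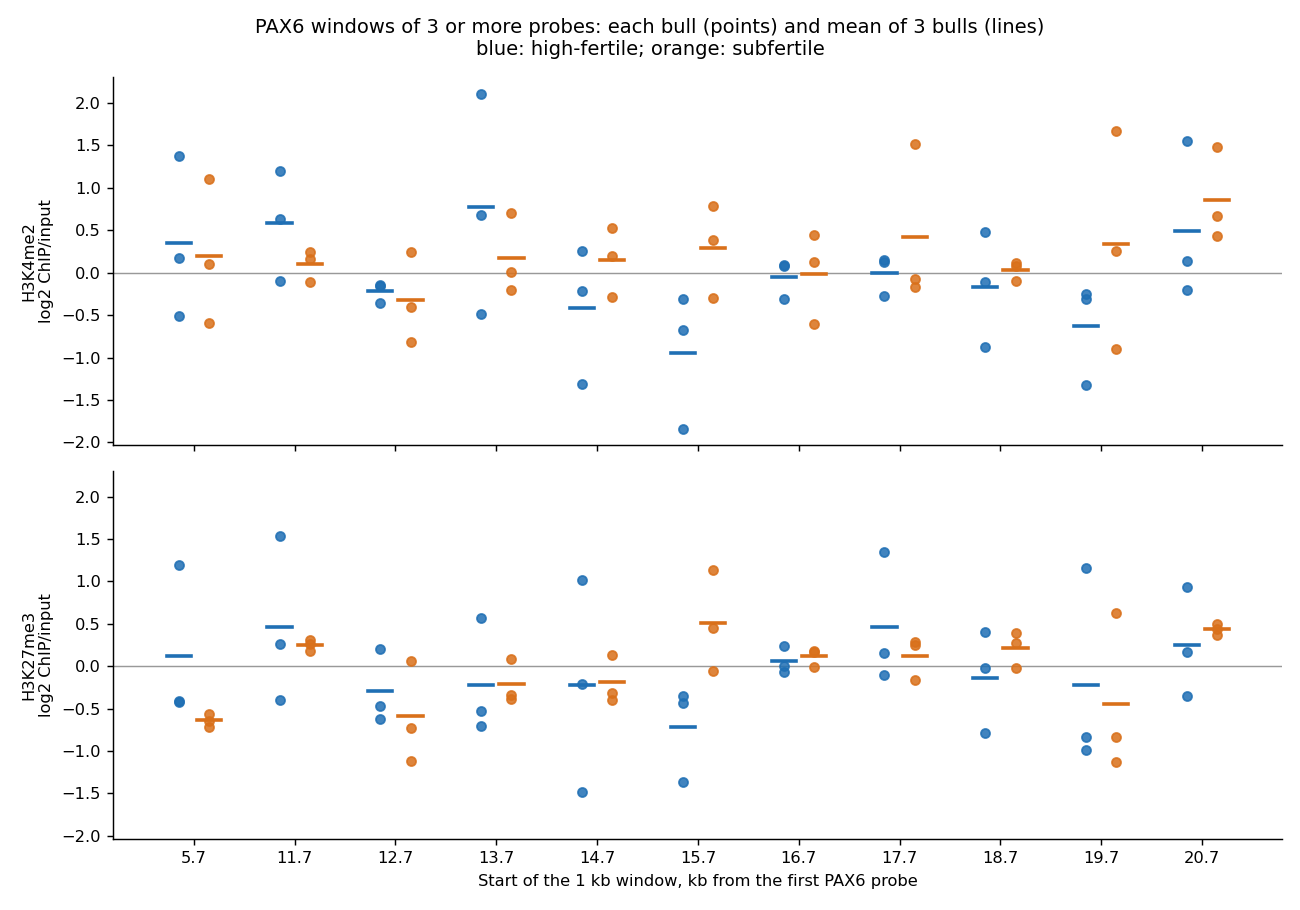
Mean log2 ratio of each bull (points) and of 3 bulls (lines) in the 11 PAX6 windows of 1 kb with at least 3 probes, by distance from the first probe, H3K4me2 above and H3K27me3 below (blue, high-fertile; orange, subfertile). The groups are apart for both marks only in the sixth window and, for H3K27me3, also in the first window, where HF3 sits at 1.20.

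The bull groups lay apart for both marks in a single window, chr15:62398000-62398999 with 23 probes. Of all windows, 7.38% lay apart for H3K4me2 and 8.05% for H3K27me3, and the share apart for both was not counted. For H3K4me2 the high-fertile bulls were at -0.68 (HF2), -1.84 (HF3) and -0.31 (HF5), and the subfertile bulls at 0.38 (SF1), -0.29 (SF4) and 0.78 (SF5). For H3K27me3 they were at -0.44, -1.37 and -0.35 against 0.45, -0.06 and 1.13, in the same order. All high-fertile values were the lower ones, HF3 the lowest by a wide margin, and HF5 and SF4 nearly met for H3K4me2. The difference was -1.23 for H3K4me2 (interval -2.56 to 0.09, limma adjusted p = 0.999 over 13287 windows) and -1.22 for H3K27me3 (interval -2.40 to -0.05, limma adjusted p = 1.00). Without HF3 the differences were -0.79 and -0.90. They lay in the last 500 bases, at -1.49 and -1.41, while the first 500 bases gave 0.51 for H3K4me2 and 0.00 for H3K27me3. Those first 500 bases hold only 3 overlapping probes, from 62398407 to 62398475. With the deposited table or loess within each array the H3K4me2 difference was -1.22 and -1.21, respectively, but its groups overlapped, whereas those of H3K27me3 stayed apart. In windows of 2000 bases it was -0.28 for H3K4me2, with groups overlapping, and -0.30 for H3K27me3.

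In that window the groups lay apart in the input and overlapped in the ChIP signal of both marks. The input, as log2 signal against the array median, was -0.59 in HF2, 0.91 in HF3 and -0.47 in HF5, and -1.34 in SF1, -0.81 in SF4 and -1.22 in SF5. High-fertile input was thus higher by 1.07, with no overlap of the groups. The H3K4me2 ChIP signal was -1.28, -0.78, -0.80, -0.88, -1.15 and -0.40 in the same order of bulls, and the groups overlapped. With the ChIP colour alone, in place of the ratio, the group difference was -0.14 for H3K4me2 (interval -0.98 to 0.69) and -0.14 for H3K27me3 (interval -1.03 to 0.76), each with a limma adjusted p of 1.00. Both marks are set against the same input DNA in each bull, so their like differences here are not independent of each other.

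**Figure D5:**
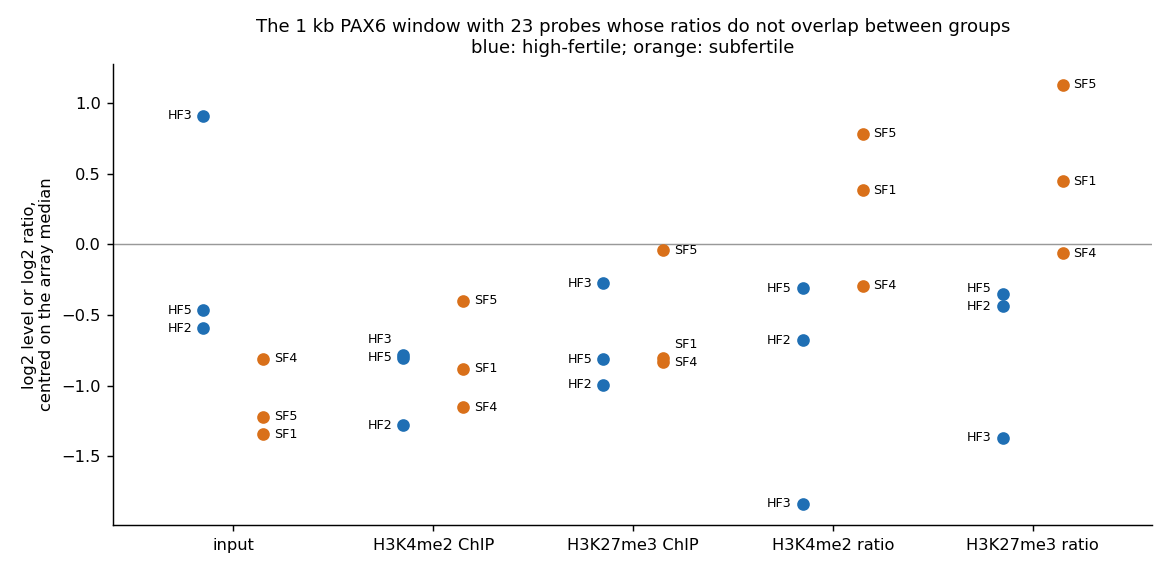
The 23 PAX6 probes of the window whose ratios do not overlap between groups: mean log2 input, H3K4me2 ChIP and H3K27me3 ChIP signal, and both log2 ratios, for each bull (blue, high-fertile; orange, subfertile). Groups are apart in the input and in both ratios, and overlap in both ChIP signals.

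The probe at 62398954, shown above, belongs to this window. Its H3K4me2 ratios were -1.38, -3.27 and -2.26 in HF2, HF3 and HF5 against 0.46, -0.73 and 3.13 in SF1, SF4 and SF5, a difference of -3.26 (interval -5.61 to -0.91, limma adjusted p = 1.00). Its H3K27me3 ratios were -0.90, -2.75 and -2.45 against 1.11, -0.85 and 0.78 in the same order, so those groups lay apart as well, though HF2 and SF4 nearly met. The input at this probe was 1.23 in HF3 and -2.48 in SF1, the extremes of the 6 bulls. Its H3K4me2 ChIP signal was highest in SF5 (1.15) and lowest in HF5 (-3.37), and the groups overlapped in it. Groups lay apart for both marks at 3 of the 459 PAX6 probes with values on all arrays (0.65%), all in this window. The share over all probes was not counted, and both ratios of a bull share its input DNA.

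In another window, at 62388000 with 30 probes, the groups lay apart for H3K27me3 and overlapped for H3K4me2. High-fertile bulls were at -0.42, 1.20 and -0.41 and subfertile bulls at -0.71, -0.64 and -0.56 in the order above. HF3 stood far above all others and the remaining high-fertile bulls only just above SF5. The difference was 0.76 (limma adjusted p = 1.00), and 0.22 without HF3. HF3 also had the lowest input there, -1.87 against -1.03 to -0.78 in the other bulls.

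Among the probes, the shares with groups apart or with a small p were near or below those of the whole array, and the windows are few. The groups lay apart in 1 of 11 windows for H3K4me2, where 7.38% of all windows did, and in 2 for H3K27me3, against 8.05%. At an unadjusted p under 0.05 there were 0 and 1 of 11 windows, against 3.09% and 3.82% of all windows. Of the 459 PAX6 probes with values on all arrays, 15 had an unadjusted p under 0.05 for each mark, where 3.01% of all probes had for H3K4me2 and 4.31% for H3K27me3. Groups lay apart at 27 probes (5.88%) for H3K4me2 and 25 (5.45%) for H3K27me3, against 7.17% and 8.03% of all probes. At an adjusted p of 0.05 limma called 0 of 175796 probes (0%), PAX6 probes included.

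The input alone lay apart between groups at 57 of the 459 probes (12.4%, against 7.61% of all probes) and in 2 of 11 windows (8.11% of all windows), at 62398000 and, lower in high-fertile bulls, at 62394000. The H3K4me2 ChIP signal did so at 20 probes (4.36%, against 6.26%) and the H3K27me3 ChIP signal at 7 (1.53%, against 7.39%). Of the 27 probes apart in the H3K4me2 ratio, 9 were apart in the ChIP colour, 11 in the input and 9 in neither. Of the 25 for H3K27me3, 2 were apart in the ChIP colour, 4 in the input and 19 in neither. As the probes overlap, these shares rest on few separate stretches.

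Among single probes, that at 62401072, with 4 CpGs, had the largest H3K27me3 difference of those named. Its H3K27me3 ratios were -0.31, -1.60 and -2.17 in HF2, HF3 and HF5 against 1.23, 2.12 and 0.89 in SF1, SF4 and SF5, a difference of -2.77 (interval -4.28 to -1.26, limma adjusted p = 1.00). The H3K27me3 ChIP signal overlapped between groups at this probe, from -3.02 in HF5 to 0.54 in SF5. For H3K4me2 its groups overlapped. In the other direction, H3K27me3 was higher in high-fertile bulls by 1.10 at the probe at 62399464 and by 1.56 at that at 62400564. For H3K4me2 the probe at 62388896 read 0.50, 2.93 and 0.66 in high-fertile bulls against -1.77, -0.14 and -1.41, a difference of 2.47 (adjusted p = 1.00). Its H3K4me2 ChIP signal also lay apart, at -1.55, -1.17 and -1.51 against -2.15, -2.38 and -2.98, while its input overlapped between groups.

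The probe highest for both marks, at 62399226, was high in most bulls but not in all. For H3K4me2 it read 1.99 in HF3, 3.82 in HF5, 2.66 in SF1 and 1.99 in SF4, but -0.21 in HF2 and -1.81 in SF5, a mean of 1.41 ± 2.05 (SD, n = 6 bulls). For H3K27me3 it read 3.08 in HF3, 3.33 in SF1, 1.35 in HF5, 0.98 in SF4, 0.48 in SF5 and 0.36 in HF2, all above 0, a mean of 1.60 ± 1.30 (limma adjusted p = 0.866). Its input was lowest in SF1 (-3.34) and HF3 (-2.93), which had the highest H3K27me3 ratios, while its H3K27me3 ChIP signal stayed between -0.47 and 0.48 in all 6. The lowest H3K27me3 probe, at 62395961, averaged -1.52 ± 1.15 and was above 0 only in SF4 (0.22). The lowest H3K4me2 probe, at 62397160, averaged -1.09 ± 1.24 and was above 0 only in SF1 (0.34).

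Between the marks, 1 of 11 windows had the same sign in all 6 bulls, where 3.09% of all windows did. This was the window at 62396000 with 28 probes, at which H3K4me2 exceeded H3K27me3. H3K4me2 was at -0.48, 0.68, 2.11, -0.21, 0.71 and 0.00 in HF2, HF3, HF5, SF1, SF4 and SF5, and H3K27me3 at -0.71, 0.56, -0.53, -0.38, 0.09 and -0.34. HF5 made the largest step, and its H3K4me2 ChIP signal was 3.19 above the array median there, against 0.74 to 1.61 in the other bulls. The difference was 0.69 (interval -0.25 to 1.63, limma adjusted p = 1.00), and 0.28 without HF5. With the bull as a block its adjusted p was 0.944. The probe at 62396399 in this window read 3.87 for H3K4me2 and -1.26 for H3K27me3 in HF5, and H3K4me2 was higher in all 6 bulls. The probe at 62399056 went the other way in all 6, by 1.14 on average (limma adjusted p = 1.00). The marks differed with the same sign in all 6 bulls at 32 of 459 PAX6 probes and at 5192 of all 175796 probes. At an unadjusted limma p under 0.05 there were 1 PAX6 probe and 878 of all probes. As PAX6 probes overlap, their count rests on few separate stretches.

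Beyond the named probes, the next probes on the array belonged to 2 CpG islands without a gene symbol. That at chr15:62408741-62409078, with 15 probes and 3997 bases past the last PAX6 probe, read for H3K4me2 0.31, -1.46 and -1.05 in HF2, HF3 and HF5 and 0.68, 1.82 and -1.22 in SF1, SF4 and SF5. Its H3K27me3 values were -0.32, -2.46, -0.55, 0.53, 0.86 and -1.04. That at chr15:62410631-62411150, with 23 probes, ran from -0.96 in SF4 to 0.80 in SF5 for H3K4me2 and from -0.23 in SF4 to 0.54 in HF5 for H3K27me3. The bull groups overlapped for both marks in both islands.

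Compared with the 96 symbols of at least 100 probes, PAX6 varied little from array to array. The SD of its 12 array means was 0.18, against a median of 0.30, and 87 of the 96 were more variable. Its spread along the locus was ordinary, with a mean SD over probes of 1.01 against a median of 0.98. Same-bull correlation of the marks averaged 0.48, against a median of 0.56, and 82 of the 96 were higher. These are ranks without a test, and means over more probes vary less.

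Among 2969 symbols with at least 10 probes, RPS6KA2, a ribosomal S6 kinase gene, followed PAX6 most closely over the 12 array means (Pearson r = 0.96, 35 probes). DDX47 (0.91), C13H20orf7 (0.90), NUP35 (0.88) and ARHGEF10L (0.88) came next, against a median r of 0.0378. With the mean of each mark taken out first, 4 of these 5 stayed and MAGI3 (0.88) replaced ARHGEF10L. The 12 arrays share the inputs of 6 bulls, and these are the highest of many symbols, so they are given as a description.

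No gene of the paired-box family or of the PAX6 pathway lists was called. Of the other 8 paired-box genes, PAX3 and PAX9, regulators of neural crest and of pharyngeal pouch and tooth development, were on the array with 64 probes each. For H3K4me2, PAX9 was at -0.05 ± 0.24 in high-fertile bulls and at -0.40 ± 0.35 in subfertile ones (SD, n = 3 bulls each), a difference of 0.35 (limma adjusted p = 1.00). PAX3 differed by 0.04 for H3K4me2 and by -0.05 for H3K27me3, its adjusted p being 1.00 in each.

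In the list of eye field, lens and retina genes 15 of 24 were tested, with a median fertility difference of -0.09 for H3K4me2 and -0.04 for H3K27me3, against -0.02 and 0.01 over all genes. MAF and OTX2, transcription factors of lens and of forebrain and retina, averaged below the array median for H3K4me2 over all bulls, at -0.75 (limma adjusted p = 0.806) and -0.56 (adjusted p = 0.893). These were 2 of 15 at an unadjusted p under 0.05, where 5.11% of all genes had one. The neural list had 12 of 21 tested and median differences of -0.01 and 0.05. The endocrine pancreas list had 7 of 17 tested, with medians of 0.10 and 0.19. NEUROD1, a factor of islet cells and neurons, was at 0.74 ± 0.15 for H3K27me3 in high-fertile and -0.14 ± 0.16 in subfertile bulls (SD, n = 3 each), a difference of 0.87 (limma adjusted p = 1.00).

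In no list did a gene pass an adjusted p of 0.05. At an unadjusted p under 0.05, 0 genes of the eye, neural and pancreas lists stood out in the H3K4me2 fertility comparison, against 2.91% of all genes, and 1 (NEUROD1) in that of H3K27me3, against 4.07%. Of 10 listed chromosomal neighbours of PAX6, 1 was on the array, and with too few probes for the test. Marker genes of sperm (5 tested), leukocytes (2), epithelium (5) and somatic testis cells (2) also had 0 calls. At an unadjusted p under 0.05 in the H3K4me2 fertility comparison, 1 sperm marker and 1 of somatic testis stood out. These were TEKT3 of the flagellum at -1.28 (4 probes) and the steroid enzyme gene HSD3B1 at -1.49 (2 probes). Of the 5 sperm markers 4 were lower in high-fertile bulls, but SPAG6, with 14 probes, was higher by 1.36 (limma unadjusted p = 0.123). The other somatic testis marker was higher. The arrays measure histone marks on these genes and not their RNA, so the share of other cells in the semen was not tested.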

How the data were processed

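DNA from ChIP (Cy5) and input (Cy3) of 6 bulls was hybridised to 12 arrays, 1 per bull and mark. The deposited scanner files hold spot intensity from Agilent Feature Extraction 10.7 (10.7.3.1 per the file headers), background-subtracted and dye-normalized per the file headers, with quality flags and a deposited LogRatio, a log10 value that was not used for tests. The deposited table of log2 ratios served as an alternative. Its columns correlated with the scanner log2 ratios at r of 0.74 to 0.995, with slopes of 0.555 to 1.03, which settles its direction as ChIP over input and its log2 scale, while its centring and method are not stated. Its column medians, in the order HF2, HF3, HF5, SF1, SF4 and SF5, were 0, 0.1, -0.11, 0.04, -0.01 and -0.13 for H3K4me2 and -0.01, 0.09, -0.07, 0.03, -0.01 and -0.02 for H3K27me3.

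Values here are log2 of the processed red over green signal, centred on the median of each array. Of 177440 non-control probes, 177372 with input well above background on at least 6 arrays were kept, 3440 control spots were left out and outlier spots were set missing. limma 3.58.1 (lmFit and eBayes, R 4.3.3, Benjamini-Hochberg adjustment) was run over 6805 genes of at least 2 probes, 13287 windows of 1000 bases and at least 3 probes, and 175796 probes complete on all arrays. It was tested on simulated data. The number of arrays limits the precision.

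The arrays of the 2 marks were paired by bull name within a fertility group (HF5 and SF5 are different bulls): both arrays of a bull lay on 1 slide, and their inputs correlated at 0.988 to 0.996 over PAX6 probes. Named windows are the 2 highest and 2 lowest means per mark. Per comparison, up to 2 in each direction with the smallest p among those with groups apart were also named. For the comparison of marks, a difference of the same sign in every bull took the place of groups apart. Probes follow the same rule with 3 means each way, and only some of those are printed. Likeness names the 5 highest correlations, and lists are counted in full. PAX6 and the gene lists were chosen with earlier results of these data known, and its probes then followed from the symbol alone. Alternatives were background correction, loess, the deposited table, the ChIP colour alone, a mean input, probe filters, the median of probes, window width, slide, the bull as a block and left-out bulls. Thinning to 1 probe per 60 bases was chosen after seeing the data.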

Additional observations from a re-analysis of the deposited data

How the results depend on the processing

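The fertility difference of both marks, the marks themselves and their difference stayed without a call under every alternative run, and the locus means lay so close to 0 that their sign moved. The H3K27me3 fertility difference was -0.02 with 1 probe per 60 bases and -0.12 without HF5 and SF5, and ranged from -0.08 to 0.11 with single bulls left out. The H3K4me2 fertility difference was 0.18 within the shared slide and -0.30 to -0.05 with single bulls left out. The H3K4me2 mean was 0.27 with the ChIP colour alone, -0.07 without HF5 and SF5 and -0.02 to 0.10 with single bulls left out. The H3K27me3 mean was 0.18 with the ChIP colour alone, 0.06 as the median of probes and 0.02 with 1 probe per 60 bases, and -0.09 to -0.01 with single bulls left out. H3K4me2 minus H3K27me3 was -0.02 as the median of probes. With the bull as a paired replicate block it stayed at 0.09 and the difference between marks of the fertility difference at -0.22, and the block changed no call. That last difference was -0.05 without HF5 and SF5, -0.03 with 1 probe per 60 bases and -0.32 to -0.05 with single bulls left out. With the ChIP colour alone, which has no input to set its level, 7 of 11 windows were called for each mark, as were 6983 and 7009 of all 13287 windows.

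Among named windows, the H3K4me2 mean at 62398000 was 0.78 in the first 500 bases, which hold only 3 probes, and its fertility difference 0.51. In windows of 2000 bases, those at 62395000 (0.06, H3K4me2), 62394000 (-0.01, H3K27me3) and 62403000 (-0.16, H3K27me3) changed sign. With the ChIP colour alone the window at 62395000 turned to 0.65 for H3K4me2 and 0.46 for H3K27me3. So did the probes at 62399226 (-0.07) and 62397845 (-0.39) for H3K4me2 and at 62399214 (-0.65) for H3K27me3. The causes were not tested. The slide as a random block was not run, since the package it needs was missing. Depth is that of 3 bulls per group: the intervals of the fertility differences at the locus span over 1 log2 unit. True differences anywhere within them remain compatible with these values, and the intervals are not limits of detection.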
